A study of Homo sapiens with 3 samples.

Results

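The constitutive proteasome subunits, the genes of the standard proteasome and its activators, were taken by gene symbol: every name made of PSMA, PSMB, PSMC, PSMD or PSME and a number, without the interferon-inducible subunits PSMB8, PSMB9 and PSMB10, without pseudogenes and without antisense names. This gave 40 genes of 22713 gene names. They were 8 alpha, 8 beta, 6 ATPase and 11 non-ATPase cap genes, 3 assembly chaperones of the cap with PSMD symbols (PSMD5, PSMD9 and PSMD10) and 4 activators. Of these 40, 38 had a mean of at least 1 FPKM (fragments relative to transcript length and to the mapped fragments of a library) over the libraries and were compared. The remaining pair were PSMA8, an alpha subunit of the testis, and PSMB11, a beta subunit of the thymus.

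The proteasome is the protease that degrades ubiquitin-tagged proteins, and it is built from many subunits that have to be present in matched numbers. Its barrel-shaped core is a stack of alpha rings (genes PSMA) and beta rings (PSMB), and the proteolytic sites sit on the beta subunits PSMB5, PSMB6 and PSMB7. A cap on the barrel recognises and unfolds the substrate with a ring of ATPases (PSMC) and a set of non-ATPase subunits (most PSMD genes), while PSME genes encode alternative activators that dock at the same place. In many cell types the transcription factor NFE2L1 (also named NRF1) raises many of these genes together when proteasome activity falls short.

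The genes were read in 3 RNA-seq libraries of the Ewing sarcoma cell line TC32, 1 from cells with knockdown of EWS-FLI1, 1 from cells treated for 15 hours with 3 µM of the compound called YK in the library's title, and 1 from control cells labelled WT Control. EWS-FLI1 is the fusion transcription factor of this tumour, with the ETS-type DNA-binding part of FLI1, and YK is known as a small molecule that interferes with its binding to RNA helicase A. The labels give neither the hairpin nor the length of the knockdown. DMSO was the vehicle, and whether the control had it or a hairpin is not stated. The knockdown values stand under the heading dEF, while that library's title has shEF. With 1 library per group there is no replicate check, no test and no p-value, and higher and lower describe these libraries only. In such bulk RNA, fewer cells of a type and less RNA per cell cannot be told apart.

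The deposited FPKM of most genes lay several-fold apart between libraries. Each library was therefore multiplied by the factor that puts the median compared gene level, which was 1.44 for the knockdown library, 2.12 for YK and 0.325 for the control. Levels below are scaled FPKM unless called deposited. A log2 ratio is the difference of log2(scaled FPKM + 1), and a gene counted as higher or lower from a log2 ratio of 1 upwards in either direction. The members rested on a median of about 4925 estimated fragments in the knockdown library, 7949 with YK and 8098 in the control. Counting error (SE) of their log2 ratios was at most 0.10, except for PSMD3, where it reached 0.14. These errors hold nothing of the spread between cultures. PSMA8 was listed at 0.0291 deposited FPKM in the knockdown library, 0.0223 with YK and 0 in the control, and PSMB11 at 0, 0.0243 and 0 FPKM in the same order.

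FLI1, whose reads also carry the fusion, stood at 2.13 scaled FPKM in the library labelled knockdown, 17.6 with YK and 21.4 in the control, log2 ratios to control of -2.84 after knockdown and -0.27 with YK. Of 8 Ewing sarcoma markers, 7 passed the filter and CD99 was listed at 0 in all 3 libraries. After knockdown NR0B1 (-2.76), STEAP1 (-2.49), CCND1 (-2.32), PRKCB (-1.86) and CAV1 (-1.55) were lower than in the control. NKX2-2, at a mean of 1.44 FPKM, was not (0.43). With YK, CAV1 was higher (1.48), and the other compared markers stayed within the threshold, from CCND1 at -0.70 to NR0B1 at 0.37. Of other cell types' markers, the 4 endothelial genes summed to at most 1.15 scaled FPKM in any library. The 5 leukocyte markers summed to 27.5 scaled FPKM in the knockdown library, 15.1 with YK and 20.6 in the control; CD68 alone passed the filter, and CD3E was at 0 in all 3. The 4 fibroblast markers summed to 55.1, 23.3 and 26.2 scaled FPKM in the same order, and their log2 ratios after knockdown did not share a direction, with FAP at 1.86, PDGFRB at 1.44, LUM at 1.34 and DCN at -1.86. The part of such cells in the results was not tested.

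Sequences are shown for the 5 genes that stand furthest apart in the results below: PSMD14 and PSMC3, which had the lowest ratio to control of all members in the knockdown and in the YK library, and PSMD2, PSME1 and PSME2, which lay furthest above genes of their abundance after knockdown. Each is the 250 bases before the transcription start in the RefSeq table (GRCh38.p14), the first start listed where there are several, read 5′ to 3′ towards the start. Capitals mark matches, on either strand, to CCGGAA (an ETS-type core), TGACNNNGC (the core of the antioxidant response element, which NFE2L1 and NFE2L2 bind) and CCAAT (the NF-Y box).
PSMD14, chr2:161308175-161308424, plus strand: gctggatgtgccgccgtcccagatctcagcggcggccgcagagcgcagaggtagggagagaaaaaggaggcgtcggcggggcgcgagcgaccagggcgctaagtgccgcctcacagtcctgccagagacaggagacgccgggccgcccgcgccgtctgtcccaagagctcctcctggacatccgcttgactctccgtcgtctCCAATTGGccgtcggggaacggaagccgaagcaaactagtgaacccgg
PSMC3, chr11:47426440-47426689, minus strand: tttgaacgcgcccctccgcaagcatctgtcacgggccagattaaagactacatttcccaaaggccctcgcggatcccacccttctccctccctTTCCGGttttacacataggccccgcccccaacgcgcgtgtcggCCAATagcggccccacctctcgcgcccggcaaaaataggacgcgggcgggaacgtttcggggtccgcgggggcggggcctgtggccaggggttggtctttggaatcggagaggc
PSMD2, chr3:184298991-184299240, plus strand: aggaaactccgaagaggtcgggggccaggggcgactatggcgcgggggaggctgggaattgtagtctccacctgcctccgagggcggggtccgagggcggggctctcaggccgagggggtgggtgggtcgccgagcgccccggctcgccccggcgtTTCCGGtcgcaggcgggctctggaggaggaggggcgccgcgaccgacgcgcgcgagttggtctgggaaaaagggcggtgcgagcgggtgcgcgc
PSME1, chr14:24135944-24136193, plus strand: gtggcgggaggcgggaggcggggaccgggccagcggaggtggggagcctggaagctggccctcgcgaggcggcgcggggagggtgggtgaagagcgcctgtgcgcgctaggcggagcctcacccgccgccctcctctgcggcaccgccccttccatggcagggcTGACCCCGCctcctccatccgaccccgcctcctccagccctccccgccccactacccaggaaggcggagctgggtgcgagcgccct
PSME2, chr14:24146611-24146860, minus strand: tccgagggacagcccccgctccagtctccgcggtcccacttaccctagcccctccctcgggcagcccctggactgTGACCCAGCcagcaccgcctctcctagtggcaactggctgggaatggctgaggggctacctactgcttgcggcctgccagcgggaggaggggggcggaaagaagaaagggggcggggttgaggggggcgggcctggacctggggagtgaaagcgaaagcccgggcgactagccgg
PSME1 and PSME2 held a TGACNNNGC match each and no CCGGAA or CCAAT, PSMD2 held a CCGGAA match alone, PSMC3 held CCGGAA and CCAAT, and PSMD14 held CCAAT on both strands in overlap. The starts of PSME1 and PSME2 lie 10416 bases apart on opposite strands. The table matched 35 of the 40 genes with 41 starts. CCGGAA was found before 39.0% of these starts, against 14.5% of all 35116 starts. TGACNNNGC was found before 24.4%, against 10.9% of all, CCAAT before 41.5%, against 32.0%, and GGGCGG, the GC box (not marked above), before 63.4%, against 42.6%. All starts include those of genes that do not code for protein, and a match is a description, not a bound site.

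Proteasome transcripts were abundant and unequal in level. PSMB5, which carries the chymotrypsin-like site, and PSMB1, a beta subunit without a proteolytic site, were the top pair in every library, and together held 43.9% of the summed core FPKM in the knockdown library, 42.5% with YK and 44.9% in the control. PSMB3 and PSMB6 followed in the same order in all 3. In each library the lowest beta subunit compared was PSMB2, and the deposited level of the highest was 30.2 times that of PSMB2 in the knockdown library, 22.9 times with YK and 23.6 times in the control. The alpha ring was more even, with a highest level 6.48, 5.22 and 5.57 times that of PSMA5, its lowest subunit, in the knockdown, YK and control libraries. PSMD3, a scaffold subunit of the cap, was far below its partners in every library, at 1.13 FPKM as deposited in the knockdown library, 0.410 with YK and 1.78 in the control, where the median cap subunit had 36.1, 41.8 and 330 FPKM. It barely passed the filter on low values, and its ratios rest on an estimated 89, 45 and 33 fragments.

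**Figure D1:**
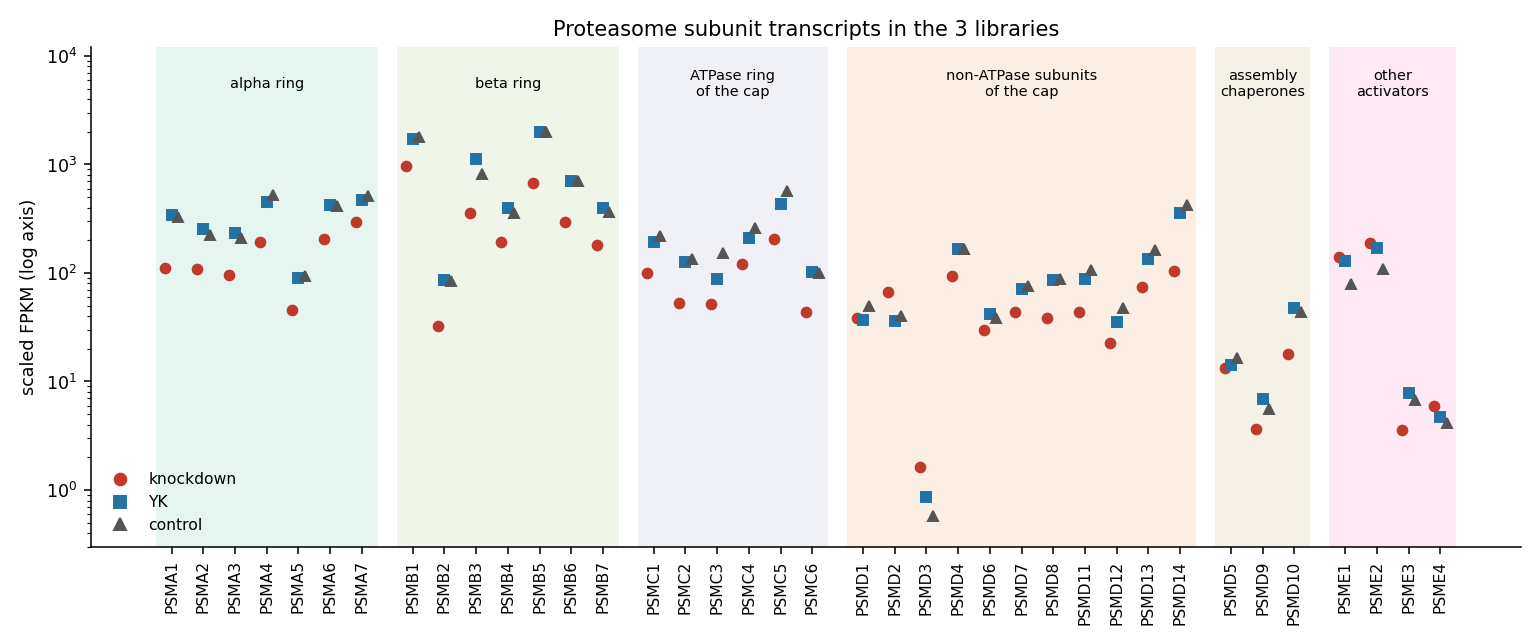
Scaled FPKM (log axis) of the 38 compared proteasome genes, grouped by role, with 1 point for each library (circle, knockdown; square, YK; triangle, control). In the alpha, beta and ATPase rings all circles lie below the squares and triangles, while PSMD2, PSMD3, PSME1, PSME2 and PSME4 have their circles on top, and PSMD3 is the lowest subunit.

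After knockdown of EWS-FLI1, most transcripts of the core and the cap were lower than in the control and those of the activator genes PSME1 and PSME2 were not. Of 38 members, 22 were lower (57.9%) and 0 were higher. Over all 9938 compared names 17.0% were lower, 17.3% higher and 34.3% either. The median log2 ratio of the members was -1.05, against 0.01 over all names. Abundant genes as a class were low in this library: of the 1988 most abundant names 44.2% were lower and 5.28% higher, and their median was -0.89. Of the 33 members among these names, 22 (66.7%) were lower. Set against the running median of names at the same level, the members' median was -0.11, with 14 members above that line and 24 below it. On that measure PSMD14 was lower and PSMD2, PSME1 and PSME2 were higher by at least 1, and the other 34 members were within it. Among all names 14.75% were higher and 9.89% lower on the same measure.

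The 7 alpha subunits compared, which form the outer rings and the gate of the core, had log2 ratios from -1.54 to -0.81. Of them 5 (71.4%) were lower, against 44.2% of the most abundant names, and their median relative to names of the same level was -0.04. PSMA1 was the lowest at 112 scaled FPKM in the knockdown library, 343 with YK and 327 in the control, a log2 ratio to control of -1.54 (SE 0.02). The library of the knockdown stood apart and the other 2 were close. PSMA6 lay just outside the threshold at -0.998, and PSMB7 just inside it at -1.01.

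Of the 7 beta subunits compared, 5 (71.4%) were lower, against 44.2% of the most abundant names, with log2 ratios from -1.55 to -0.87. Their median relative to names of the same level was -0.29. PSMB5 was the lowest, at 680 scaled FPKM in the knockdown library, 1980 with YK and 1995 in the control (-1.55, SE 0.01). PSMB6, the caspase-like subunit, had 296, 698 and 709 scaled FPKM in the same order (-1.26). PSMB7, the trypsin-like subunit, had 181, 394 and 365 scaled FPKM (-1.01). All 3 proteolytic subunits were thus lowest in the knockdown library and near control with YK. Relative to names of the same level, PSMB5 was at -0.66 after knockdown, PSMB6 at -0.36 and PSMB7 at -0.03. PSMB1 had 977, 1701 and 1783 scaled FPKM and stayed within the threshold (-0.87), so that PSMB1 and not PSMB5 was the most abundant subunit in the knockdown library.

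All 6 ATPases of the cap, which unfold the substrate and thread it into the core, were lower, in a narrow range from -1.53 to -1.10. Of the most abundant names 44.2% were lower, and relative to names of the same level the median ATPase was at -0.25. PSMC3 had 52.0 scaled FPKM in the knockdown library, 87.1 with YK and 153 in the control, and PSMC5 had 207, 436 and 567. With YK they were the 2 lowest of the ring against control, at -0.80 and -0.38.

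The 11 non-ATPase subunits of the cap had the widest range, from -2.01 to 0.74. Of them 5 (45.5%) were lower, near the 44.2% of the most abundant names, and their median relative to names of the same level was 0.20. PSMD14, the deubiquitinase that removes ubiquitin chains from the substrate, was the lowest of all members, at 104 scaled FPKM in the knockdown library, 354 with YK and 422 in the control (-2.01, SE 0.02). It was also 1.01 below the running median of its level. PSMD2, a large scaffold subunit of the cap base, went the other way, with 67.4 scaled FPKM in the knockdown library, 36.4 with YK and 40.2 in the control (0.73, SE 0.03). PSMD2 was 1.55 above the running median of its level, and its ratio was 1.06, past the threshold, with upper quartile scaling, 0.08 when scaled on all names above 0 and -1.38 on the deposited values. The ratio of PSMD14 to PSMD2, which no single factor per library can alter, was 1.55 in the knockdown library, 9.72 with YK and 10.5 in the control. A scaling that depends on level would alter it. The pair was chosen after its values were seen, for lying apart after knockdown, so this ratio is no independent result. PSMD1, the other large scaffold subunit, had 38.4, 36.7 and 49.6 scaled FPKM (-0.36), and PSMD3 had 1.63, 0.869 and 0.578 (0.74, SE 0.13). The ratio of PSMD3 was 1.35, past the threshold, with 0.1 in place of 1 added before the logarithm. It was 1.37 on the deposited ratios centred on their median, 0.42 when scaled on all names above 0 and -0.38 on the deposited values.

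PSME1 and PSME2 encode the PA28 activator, an interferon-inducible ring that opens the core without using ATP. PSME1 had 140 scaled FPKM in the knockdown library, 129 with YK and 78.7 in the control (log2 ratio of the knockdown library to control 0.82, SE 0.03). PSME2 had 189, 169 and 110 scaled FPKM (0.78, SE 0.03). Both were above control in both treated libraries, and neither passed the threshold on these values. With upper quartile scaling both were higher after knockdown, at 1.15 for PSME1 and 1.10 for PSME2. Relative to names of the same level they stood 1.89 and 1.78 above in the knockdown library, the highest of all members. Scaled on all names above 0, the log2 ratios of PSME1 and PSME2 were 0.16 and 0.12, and on the deposited values, where most genes were low, they were -1.31 and -1.36. PSME3, the nuclear activator PA28 gamma, was on the other side, at 3.59, 7.82 and 6.82 scaled FPKM (-0.77, SE 0.10), and PSME4, the large activator PA200, stood at 5.89, 4.68 and 4.18 (0.41, and -0.14 when scaled on all names above 0). The assembly chaperones PSMD5, PSMD9 and PSMD10, which help build the ATPase ring, had log2 ratios of -0.29, -0.50 and -1.23.

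**Figure D2:**
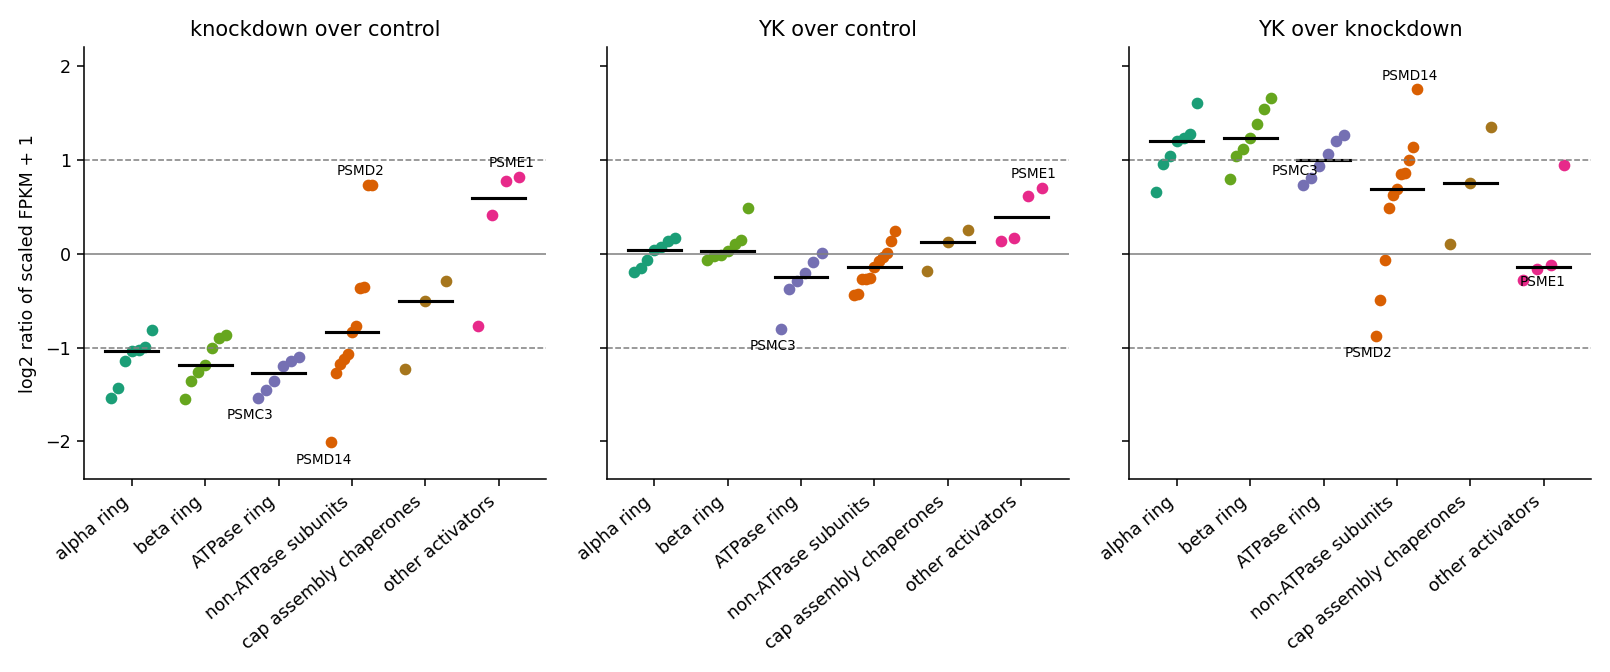
Log2 ratios of scaled FPKM + 1 for the 38 compared members by role (points; bars are medians over the genes of a role, dashed lines the threshold of 1 on either side) in the comparisons of knockdown with control, YK with control and YK with knockdown. The alpha, beta and ATPase rings lie near or below -1 after knockdown and near 0 with YK, and PSME1 lies above 0 against control in both.

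**Figure D3:**
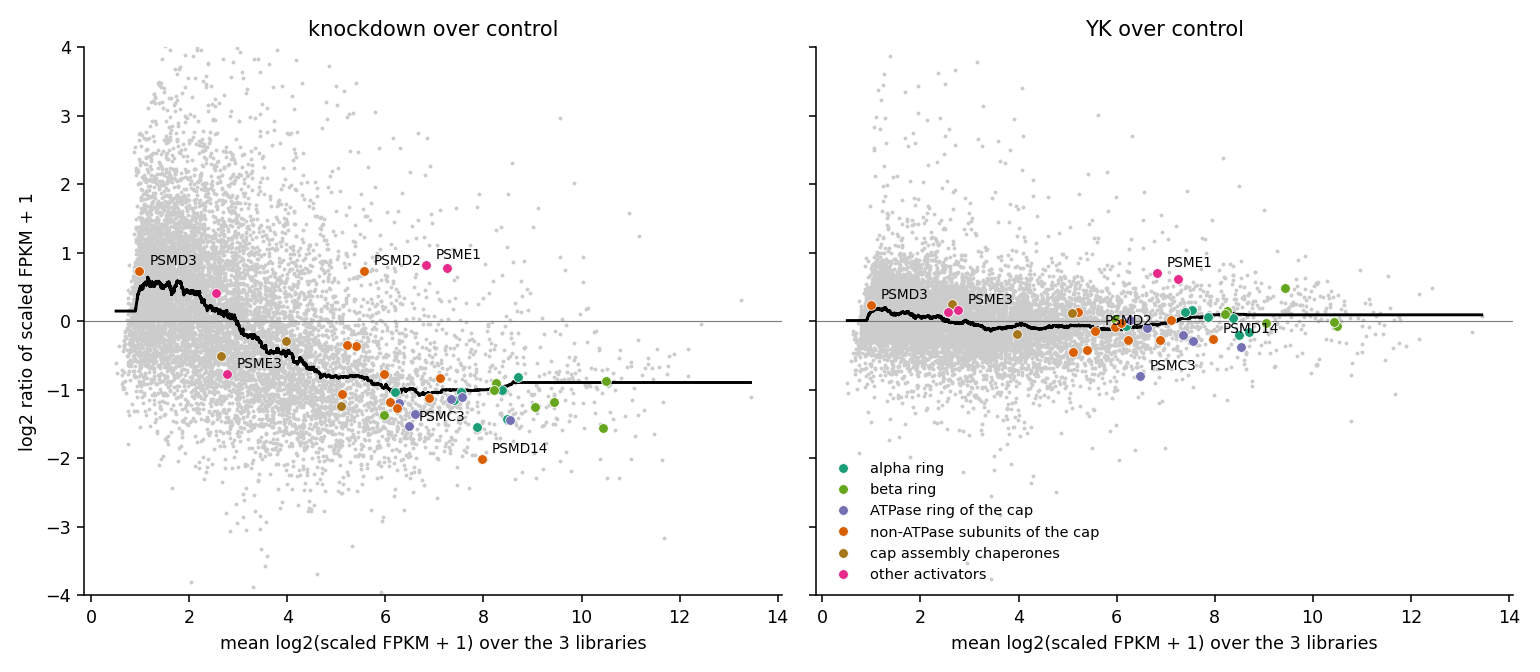
Log2 ratio to control against mean log2 level for all compared names (grey), with the running median (line) and the members (coloured by role), for the knockdown (left) and YK (right); names beyond 4 on either side are not drawn. Most members follow the line, which lies below 0 among the most abundant names after knockdown, while PSMD2 and PSME1 lie above it and PSMD14 below it.

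With YK, no member passed the threshold: 0 of 38 were higher and 0 lower, where 2.41% of all names were higher, 1.69% lower and 4.11% either. Of the 1988 most abundant names 1.96% were higher and 1.76% lower. The members' median log2 ratio to control was -0.02, against 0.03 over all names, and the range was -0.80 to 0.70. Scaled on all names above 0, PSMC3 was lower at -1.32, the 1 call of that setting. PSMC3, at -0.80 (SE 0.03), was the lowest member, and PSMD12, a lid subunit, followed at -0.44 with 22.4 scaled FPKM in the knockdown library, 35.1 with YK and 48.0 in the control. PSMD1 came next at -0.42. The highest were PSME1 at 0.70 and PSME2 at 0.61, followed by the beta subunit PSMB3 at 0.48, which had 357 scaled FPKM in the knockdown library, 1133 with YK and 811 in the control. Centred on the median of the deposited ratios, PSMB3 was at -0.02 against control. Scaled on all names above 0, PSME1 was at 0.19, PSME2 at 0.10 and PSMB3 at -0.04.

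Against control, core and cap parted by little in their medians. After knockdown the median log2 ratio to control was -1.09 over 14 core genes and -1.12 over 17 cap genes, a difference of 0.03. With YK it was 0.03 for the core and -0.20 for the cap, a difference of 0.24. Within the cap the ATPases had a median of -0.25 with YK, with 5 of 6 below 0, and the non-ATPase subunits a median of -0.14 with 8 of 11 below 0. After knockdown the cap was more divided, with medians of -1.27 for the ATPases and -0.83 for the non-ATPase subunits. Over all 16 core and 17 cap genes, the summed FPKM of the core was 3.33 times that of the cap in the knockdown library, 3.92 times with YK and 3.20 times in the control. The cap counted here leaves out SEM1 and ADRM1, proteins bound to the cap with other symbols, which are among the partners below. SEM1 had 307 deposited FPKM in the knockdown library, 505 with YK and 2762 in the control, and ADRM1 had 23.9, 54.9 and 357. With them in the cap, all these ratios of core to cap would be smaller. PSME1 and PSME2 together amounted to 8.71% of the summed core FPKM in the knockdown library, 3.44% with YK and 2.24% in the control. These shares do not depend on the scaling between libraries.

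**Figure D4:**
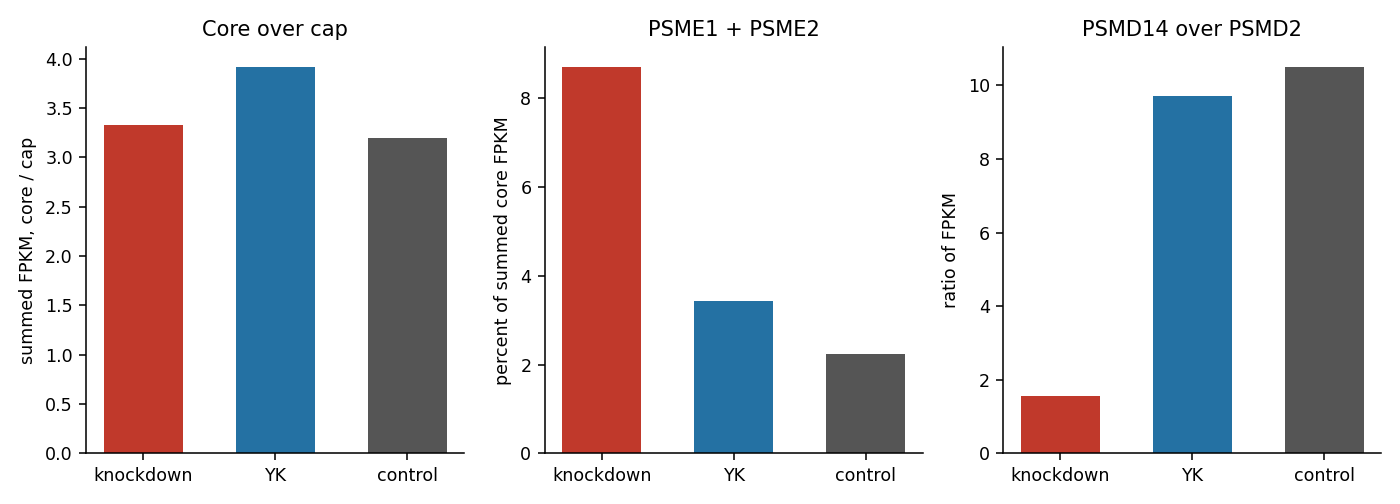
Composition of the proteasome transcripts in each library (bars, 1 library each, no error): summed FPKM of the core over that of the cap (without SEM1 and ADRM1), PSME1 plus PSME2 as a percent of summed core FPKM, and the FPKM of PSMD14 over that of PSMD2. The knockdown library has the largest PSME1 plus PSME2 share (8.71%) and the smallest PSMD14 to PSMD2 ratio (1.55). PSMD14 and PSMD2 were paired after their values after knockdown were seen.

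The treated libraries were also set against each other, using the same values as above. With YK, 17 of 38 members were higher than in the knockdown library and 0 were lower, where 15.2% of all names were higher, 14.5% lower and 29.7% either. Of the 1988 most abundant names 40.4% were higher and 5.03% lower, so the members' share of 44.7% higher was near that of abundant names. Relative to names of the same level the members' median was 0.01. The 17 were 11 of 14 core genes, 5 of 17 cap genes and the chaperone PSMD10. The core median was 1.22 and the cap median 0.85, a difference of 0.37. Relative to names of the same level core minus cap was 0.33, and as residuals on level, length and GC content it was 0.01. PSMD14 was the highest, at 354 scaled FPKM with YK and 104 in the knockdown library (1.75, SE 0.02), before PSMB3 at 1.66 and PSMA1 at 1.61. PSMD2 was the lowest, at 36.4 and 67.4 scaled FPKM in that order (-0.87, SE 0.03), before PSMD3 at -0.49 and PSME4 at -0.28.

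Other genes of the pathway were taken from a list of assembly factors, bound proteins, regulators, shuttle factors, ubiquitin genes and immunoproteasome subunits, of which 35 of 36 were compared. After knockdown 3 of 35 were higher and 7 of 35 lower, with a median log2 ratio of -0.38. Over all names 17.3% were higher and 17.0% lower, so the share of lower partners was near that over all names and the share of higher ones was below it. Relative to names of the same level the partners' median was 0.32, with 21 partners above that line and 14 below it. NFE2L1, the transcription factor of proteasome genes, was the highest, at 10.9 scaled FPKM in the knockdown library, 1.16 with YK and 1.08 in the control (2.52, SE 0.16), or about 264, 27 and 28 estimated fragments. NFE2L1 was thus highest in the library where most subunits, like abundant genes as a class, were lowest. A link between these levels was not tested. The unfoldase VCP, which extracts proteins for degradation, had 24.4, 10.6 and 8.05 scaled FPKM (1.49, SE 0.08), and its cofactor NPLOC4 had 3.69, 2.03 and 1.14 (1.13, SE 0.17). Scaled on all names above 0, VCP was at 0.88 and NPLOC4 at 0.69, both within the threshold, and NFE2L1 at 2.05.

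Among the lowest partners after knockdown were ADRM1, a ubiquitin receptor of the cap, and PSMB10, an immunoproteasome subunit that the files join with its neighbour CTRL in 1 locus. ADRM1 had 34.4 scaled FPKM in the knockdown library, 116 with YK and 116 in the control (-1.72, SE 0.04). PSMB10 had 7.76, 27.7 and 22.5 in the same order (-1.42, SE 0.09). Both were low in the knockdown library and closer to control with YK. NGLY1, the enzyme that deglycosylates NFE2L1 for its activation, UCHL5, PAAF1 and SEM1 were also lower, from -1.31 to -1.02. Relative to names of the same level these genes ranged from -1.08 for NGLY1 to -0.13 for SEM1. The 6 assembly factors had log2 ratios from -1.12 to -0.38, with POMP, the maturation factor of the core, at 130, 257 and 211 scaled FPKM (-0.69). Relative to names of the same level POMP was at 0.32 after knockdown, and the median assembly factor at -0.14.

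With YK, 1 partner (2.86%) was higher and 0 were lower, with a median of 0.01. This was near the share over all names, of which 2.41% were higher and 1.69% lower. The 1 was PSMB8, the immunoproteasome counterpart of PSMB5, at 0.121 scaled FPKM in the knockdown library, 14.1 with YK and 0.0244 in the control, or about 6, 627 and 1 estimated fragments. PSMB8 passed the filter only through the YK library, with 0.0838, 6.64 and 0.0752 FPKM as deposited. Its place among the compared partners thus came from the library where it was high, and its call is no independent result. The files list PSMB8 at 8 loci, all but 1 of them at 0, so its reads may have been divided or lost among copies. UFD1, a VCP cofactor, had 33.7 scaled FPKM in the knockdown library, 62.3 with YK and 43.2 in the control (0.52 for YK against control). On the low side, PSMF1, an inhibitor of the core, had 8.46, 8.31 and 11.52 scaled FPKM (-0.43), and the polyubiquitin gene UBB had 3317, 3588 and 4624 (-0.37). UBB shares near-identical ubiquitin repeats with other genes, and its reads could be divided among them.

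**Figure D5:**
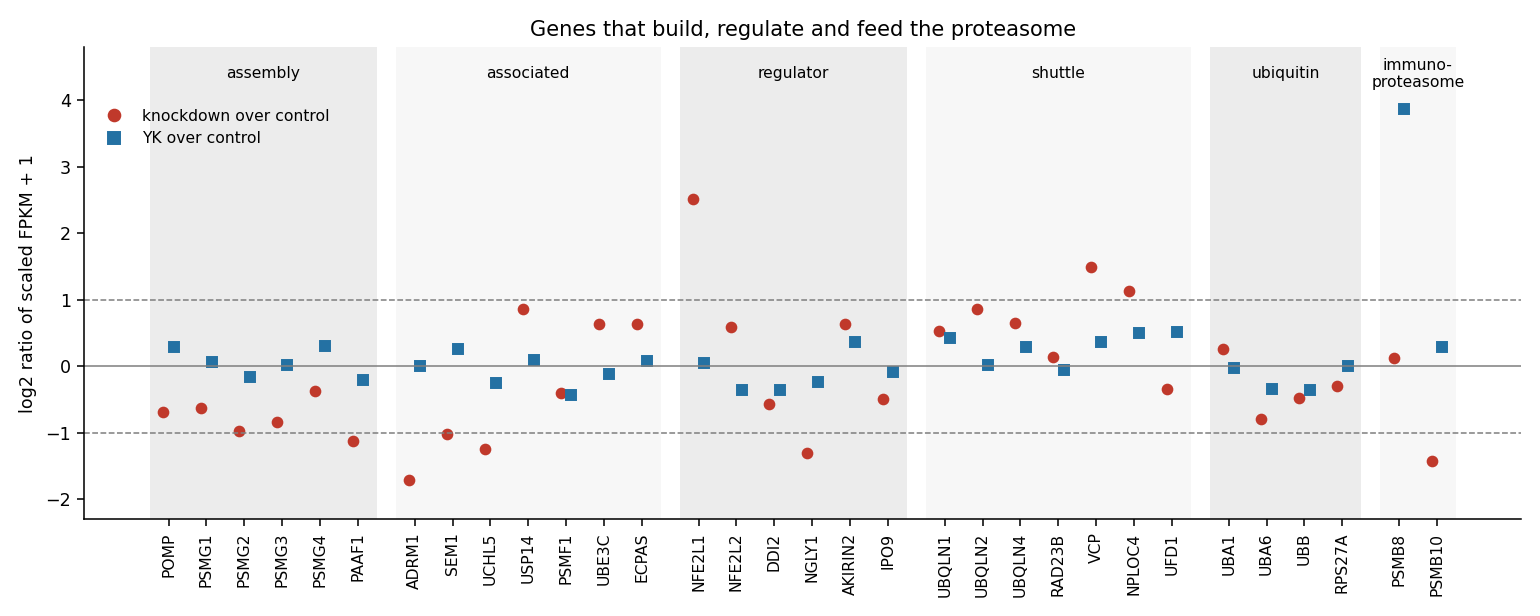
Log2 ratios of scaled FPKM + 1 to control for the compared partner genes that are reported here, by role (circle, knockdown; square, YK; dashed lines, the threshold of 1 on either side). NFE2L1 is the highest circle at 2.52 and ADRM1 the lowest at -1.72, while all squares but that of PSMB8 lie between the dashed lines.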

How the data were processed

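Total RNA of 3 samples was sequenced, 1 library each. The authors deposited FPKM for 88434 loci per library. CASAVA 1.8.2, Cufflinks 2.2.1 and TopHat, with build GRCh37 (hg19), are named in the submitters' processing notes. The annotation, any filter, the authors' scaling and how multiply mapped reads were treated: not given in the sources used here. Per the labels' protocols, cDNA from a SMARTer kit was amplified by PCR, so fragments are not independent molecules and strand is not stated.

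Loci were summed by name, and the merged locus LOC283922,PSMD7 was counted as PSMD7. For scaling, each gene's value was divided by its geometric mean, and the median of these ratios over the compared names above 0 in every library gave the factor. The planned wording did not fix over which names this median runs, so all names above 0 serve as an alternative. The pseudocount was 1. The running median took the 401 names nearest in level. Fragments were estimated from the lowest common values of olfactory receptor genes (0.0167, 0.0119 and 0.0701 FPKM for 1 fragment in 1 kb in the knockdown, YK and control libraries) with GENCODE release 29 lengths, and are approximate. The scaling was tested on simulated data in which ratios did not depend on level. That test does not cover the trend with level seen in these libraries. Every member could be named. Some partner genes, counted in the list's totals, are not reported here. Those given in full were the 3 highest and 3 lowest members in each comparison, the proteolytic subunits, and partners by the same rule plus NFE2L1, POMP and PSMB8; other members named were chosen after their values were seen. Members and lists were chosen with earlier results of these data known. Python 3.11.15, numpy 2.4.6 and pandas 2.3.3 were used.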

Additional observations from a re-analysis of the deposited data

How the results depend on the processing

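With 1 library per group no error between cultures exists, and the scaling decides the size of every ratio. No paired analysis was possible because there was 1 library per group. Of 12 alternatives, 10 were planned and 2 (scaling on all names above 0, PSMD3 left out) were chosen after seeing the data; 84 of the recomputed values stayed within 0.1 log2 or 1.5 times, and 40 did not. On the deposited values with no scaling, 37 members passed the threshold after knockdown (median -3.17), all lower, where 71.4% of all names were lower. With YK 37 passed (-2.71), all lower, where 92.2% of all names were lower. With YK against knockdown 4 passed (3 higher, 1 lower, median 0.42), where 5.08% of all names were higher and 21.5% lower. Against control, 29 and 35 partners passed in the knockdown and YK libraries. With the deposited ratios centred on their median, the medians were -1.42, -0.51 and 0.79 in the same order, 2 members passed with YK, PSMC3 lower and PSMD3 higher, and 16 and 2 partners passed. In that setting 22.2% of all names were higher and 23.6% lower after knockdown. With YK the shares were 12.3% and 4.49%. Upper quartile scaling gave 11 members (PSMD2, PSME1 and PSME2 higher, 8 lower) and a median of -0.73 after knockdown, 0.085 with YK, and 11 members (10 higher, 1 lower) and 0.75 with YK against knockdown. Under it 24.0% of all names were higher and 9.87% lower after knockdown. With YK against knockdown the shares were 10.9% and 19.4%. Scaling on all names above 0 gave medians of -1.70, -0.53 and 1.09, 1 member with YK, and 18 and 2 partners. Under this scaling 9.17% of all names were higher and 33.8% lower after knockdown, and 1.56% and 8.19% with YK. Relative to the running median at the same level, 4 members passed after knockdown (3 higher, 1 lower, median -0.11). Over all names 14.75% were higher and 9.89% lower. With YK against knockdown 4 passed (1 higher, 3 lower, median 0.012), where 9.1% of all names were higher and 13.32% lower. As residuals on level, length and GC content, 3 members passed after knockdown, all higher (median -0.065). Over all names 12.93% were higher and 12.52% lower. With YK against knockdown 4 passed (2 higher, 2 lower, median 0.032), where 10.45% of all names were higher and 12.03% lower. Core minus cap was then 0.0124 with YK against knockdown, against 0.37 in the values given above. Of the 27 partners with a length and GC content, 6 passed after knockdown (4 higher, 2 lower). At a threshold of 0.58, 3 members passed with YK (2 higher, 1 lower), where 8.45% of all names were higher and 7.16% lower. With YK against knockdown 31 passed (30 higher, 1 lower), where 27.68% of all names were higher and 26.76% lower. After knockdown 22 partners passed (10 higher, 12 lower), where 29.52% of all names were higher and 29.64% lower. Without a filter on low values 2 of 36 partners passed with YK, and with a mean of at least 5 FPKM 0 of 30 did. In these settings 1.79% and 2.3% of all names were higher with YK, and 0.83% and 2.56% lower. The median of all names was itself -1.76 after knockdown and -2.20 with YK on the deposited values, -0.50 and -0.38 when scaled on all names above 0, and 0.26 and 0.10 with upper quartile scaling. The cause of these shifts was not tested.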

Other observations

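PSMC3IP shares the letters of an ATPase subunit and encodes a recombination protein, so it was left out of the members. It had 2.99 FPKM as deposited in the knockdown library, 4.56 with YK and 38.4 in the control, log2 ratios to control of -1.34 after knockdown and -0.34 with YK on the scaled values. Among proteins bound to the cap, chosen here after their values were seen, the deubiquitinase USP14 (log2 ratio 0.86), the ubiquitin ligase UBE3C (0.64) and ECPAS, a scaffold of the proteasome (0.63), were above control after knockdown, while the deubiquitinase UCHL5 was below it (-1.24). None of the first 3 passed the threshold.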
